A study of Homo sapiens with 4 samples.

Results

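The genes described here are 10 transcription factors of the AP-1 and immediate early groups, namely FOS, FOSB, FOSL1, FOSL2, JUN, JUNB, JUND, ATF3, EGR1 and MYC. They were taken by symbol, through the RefSeq transcript that each array probe set carries. All 10 were found, each by 1 probe set of 3 probes, among 17185 genes that could be named and 45033 probe sets in all. The cells were KYSE410, a human cell line grown from a squamous carcinoma of the oesophagus. They were exposed for 24 h to the cytokines TNFα (tumour necrosis factor α) and IL1β (interleukin 1β), to lipopolysaccharide (LPS, from the outer membrane of Gram-negative bacteria) or to phosphate-buffered saline (PBS, the solvent). All 4 conditions shared the same medium with serum. Doses were not found in the labels. The study set out to screen for messenger RNAs that respond to inflammatory stimuli. Each condition was measured on 1 single-colour NimbleGen array. There were thus no replicates, and differences are given without errors or p-values. Precision is limited by the number of arrays.

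AP-1 is a family of dimeric transcription factors built from FOS and JUN proteins and from relatives such as ATF3, which join through a leucine zipper and bind DNA through an adjoining basic region. Inflammatory receptors reach them through the MAP kinases, which both activate AP-1 proteins already present and switch on the FOS, JUN and EGR1 genes. FOS, JUNB, ATF3 and EGR1 are called immediate early because their transcripts usually appear within minutes to an hour of a stimulus, without new protein synthesis, and fade soon after. FOSL1 and FOSL2 encode more stable FOS relatives that follow later. In squamous epithelium AP-1 takes part in proliferation, invasion and cornification. These arrays hold a single late time point, so an early and brief response would not appear in them.

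Values are RMA intensities, which combine the probes of a set after arrays have been brought to a common scale. Intensities of different probe sets depend on the probes and are not compared with each other. A gene is called higher or lower on 2 conditions, a difference of 2-fold or more and a brighter value at or above a floor of 260 (8.02 on the log2 scale), the median over genes of the mean level. A control set of 5000 random-sequence probes read between 54.1 and 56.4. The lowest value of any of the 10 factors, FOS with PBS, was 2.37 times the control on its array, and every other value of the 10 was higher relative to its own control. How far 2 probe sets of a gene agree was taken from 622 genes with a second set at the floor. The log2 differences from PBS of their 2 sets disagreed with an SD of 0.55 for TNFα, 0.57 for IL1β and 0.70 for LPS. Both sets were read from the same arrays, so this SD holds no variation between cultures or between arrays. None of the 10 factors had a second set.

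Transcripts of other tissues differed between the arrays, and the LPS array was not alone in this. Squamous markers fitted the labelled cell type, with 11 of 11 at the floor on every array and summed intensities of 212267 with TNFα, 180688 with IL1β, 251135 with LPS and 170839 with PBS. Of 8 heart muscle markers, 6 were at the floor with TNFα, 6 with IL1β, 3 with LPS and 6 with PBS, and their sums were 50506, 58429, 14457 and 38256.5 in that order. Of 12 leukocyte markers, 6 were at the floor with TNFα, 7 with IL1β, 1 with LPS and 2 with PBS, with sums of 13251, 14901, 1404 and 8766. The heart muscle gene ACTC1 alone read 12945 with LPS and 17961 with PBS, and the leukocyte gene LYZ 209 and 6917. The heart sum with LPS and the leukocyte sum with PBS were thus mostly 1 gene each. MYH6, a cardiac myosin heavy chain, read 81.3 with LPS, below 2 times the random control, against 9469.8 with PBS. PTPRC, the leukocyte phosphatase CD45, read 1295 with TNFα, 1046 with IL1β, 81.5 with LPS and 91.5 with PBS. Fibroblast markers summed to between 818 and 1501 and endothelial markers to between 366 and 855, with at most 2 of 6 and 1 of 5 at the floor on any array. AP-1 factors are made in leukocytes and heart as well as in epithelium, and the part of these transcripts in the values below was not tested. In such bulk RNA, fewer cells of a type and less RNA per cell cannot be told apart. MYH6 and the leukocyte transcript LYZ, both well above the floor on the TNFα, IL1β and PBS arrays, go against the label of a carcinoma cell line. Whether RNA of another source was mixed in, or samples exchanged, was not tested, and each difference from PBS below carries that limit.

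**Figure D1:**
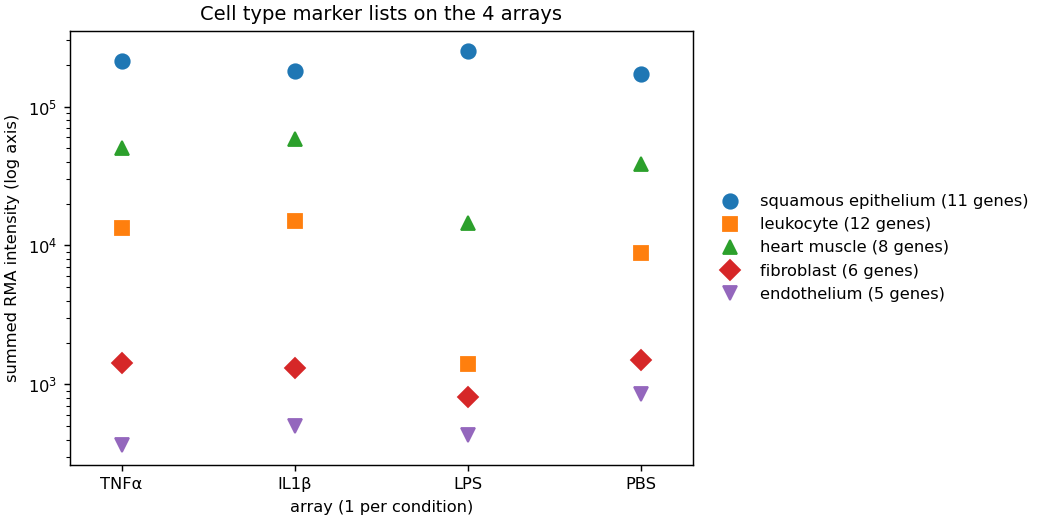
Summed RMA intensity (log axis) of 5 marker lists on the TNFα, IL1β, LPS and PBS arrays, 1 array per condition, with 1 point per list and array. Squamous markers lay between 170839 and 251135 on the 4 arrays, while leukocyte markers summed to 1404 and heart muscle markers to 14457 with LPS, against 8766 and 38256.5 with PBS. Single genes weigh heavily in these sums, with LYZ at 6917 with PBS and ACTC1 at 12945 with LPS.

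With TNFα, FOSL2 was higher than with PBS (2.66-fold) and FOSL1 lower (2.24-fold), and the other 8 factors differed by less than 2-fold. With IL1β, FOSL2 (2.09-fold) and JUNB (2.03-fold) were higher and none was lower. With LPS, FOS (3.37-fold) and JUNB (2.15-fold) were higher and FOSL1 lower (2.23-fold). EGR1 and MYC, for which early induction by such stimuli is well known, did not reach 2-fold against PBS with any stimulus at 24 h.

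Of all genes at the floor on either array, 3.37% were called higher and 3.4% lower with TNFα, 3.13% and 3.57% with IL1β, and 8.83% and 7.42% with LPS. Against these shares stand 1 higher and 1 lower of the 10 factors with TNFα, 2 and 0 with IL1β, and 2 and 1 with LPS. With so few genes these counts describe the factors and do not set them apart from genes at large. The median log2 difference of the 10 was -0.20 with TNFα, 0.22 with IL1β and 0.44 with LPS, where the medians over all named genes were -0.03, -0.03 and 0.02. The 11 squamous markers had medians of 0.10 with TNFα, -0.02 with IL1β and 0.46 with LPS. Of them 1 was called higher with TNFα, 0 with IL1β and 4 with LPS (KRT4, KRT14, KRT17 and TP63), and none lower. The part of the epithelial content of the samples in the factors' differences was not tested. The 3 comparisons share the single PBS array, so a high or low reading there enters all of them.

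**Figure D2:**
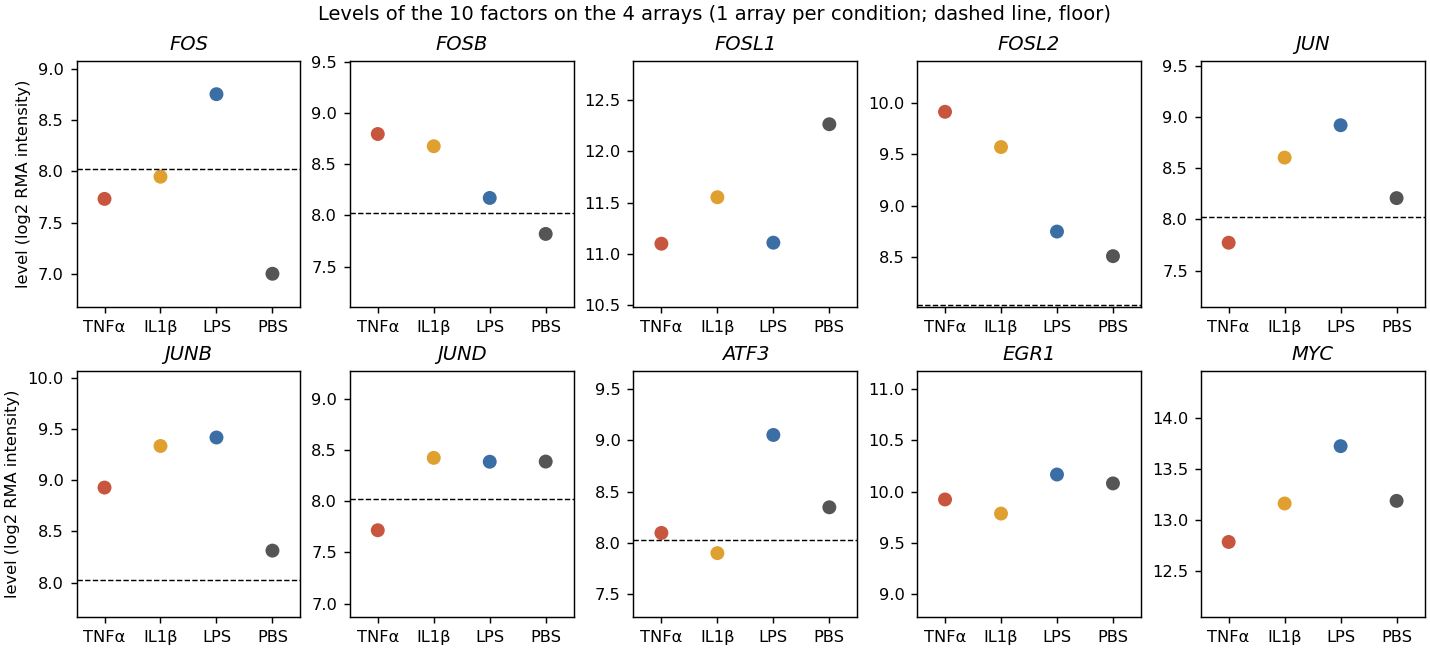
Log2 RMA intensity of each of the 10 factors on the TNFα, IL1β, LPS and PBS arrays, 1 point per array, in panels that cover the same height in log2 units. The dashed line is the floor of 8.02 where it falls within a panel. FOS read highest with LPS at 8.75 and lowest with PBS, FOSL1 was highest with PBS at 12.26, and the 4 values of EGR1 lay within 0.38 of each other.

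Upstream sequences are shown for FOS, JUNB, JUN and ATF3, which were highest with LPS, and for FOSL2 and FOSB, highest with TNFα. EGR1 is shown as the factor that varied least, though it too read highest with LPS. Each is the 250 bases before the annotated start in RefSeq, build GRCh38.p14, read 5′ to 3′ on the strand of the gene. RefSeq windows were matched for 8 of the 10 factors. FOSL1 and MYC are named only, and JUND is counted below but not printed. ATF3 had 2 annotated starts, and the upstream one is shown. Capitals mark matches on either strand to a cyclic AMP response element (CRE) type site, TGANNTCA, to the CRE half-site TGACG, or to the CArG box, the site of serum response factor.
FOS (chr14:75278578-75278827, plus strand): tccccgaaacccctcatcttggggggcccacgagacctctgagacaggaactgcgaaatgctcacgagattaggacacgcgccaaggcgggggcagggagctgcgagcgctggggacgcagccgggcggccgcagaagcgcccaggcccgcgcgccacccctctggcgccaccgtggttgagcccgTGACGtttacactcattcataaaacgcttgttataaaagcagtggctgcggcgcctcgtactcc
JUNB (chr19:12791236-12791485, plus strand): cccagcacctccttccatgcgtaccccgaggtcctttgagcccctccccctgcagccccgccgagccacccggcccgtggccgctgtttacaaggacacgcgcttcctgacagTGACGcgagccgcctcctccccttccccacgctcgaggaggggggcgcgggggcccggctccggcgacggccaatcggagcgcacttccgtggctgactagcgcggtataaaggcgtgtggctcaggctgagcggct
JUN (chr1:58784048-58784297, minus strand): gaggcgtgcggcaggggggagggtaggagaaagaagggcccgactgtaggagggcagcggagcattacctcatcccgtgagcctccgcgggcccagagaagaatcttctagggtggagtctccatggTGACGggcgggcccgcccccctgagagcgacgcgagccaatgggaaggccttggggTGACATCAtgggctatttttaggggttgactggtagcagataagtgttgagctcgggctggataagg
ATF3 (chr1:212565157-212565406, plus strand): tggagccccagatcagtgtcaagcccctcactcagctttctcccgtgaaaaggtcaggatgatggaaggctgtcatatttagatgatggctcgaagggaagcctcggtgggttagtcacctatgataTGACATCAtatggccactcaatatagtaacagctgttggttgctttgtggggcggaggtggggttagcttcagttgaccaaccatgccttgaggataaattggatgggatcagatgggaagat
FOSL2 (chr2:28392608-28392857, plus strand): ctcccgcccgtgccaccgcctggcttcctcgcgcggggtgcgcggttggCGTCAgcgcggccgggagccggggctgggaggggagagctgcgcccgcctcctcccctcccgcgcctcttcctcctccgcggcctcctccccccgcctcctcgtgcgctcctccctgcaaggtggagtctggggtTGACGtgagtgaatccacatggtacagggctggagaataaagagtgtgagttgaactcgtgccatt
FOSB (chr19:45467746-45467995, plus strand): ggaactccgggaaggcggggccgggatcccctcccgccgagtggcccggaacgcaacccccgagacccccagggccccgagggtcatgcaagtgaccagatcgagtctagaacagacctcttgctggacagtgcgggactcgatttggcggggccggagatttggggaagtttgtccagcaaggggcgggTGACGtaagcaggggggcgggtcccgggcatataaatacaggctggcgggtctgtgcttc
EGR1 (chr5:138465229-138465478, plus strand): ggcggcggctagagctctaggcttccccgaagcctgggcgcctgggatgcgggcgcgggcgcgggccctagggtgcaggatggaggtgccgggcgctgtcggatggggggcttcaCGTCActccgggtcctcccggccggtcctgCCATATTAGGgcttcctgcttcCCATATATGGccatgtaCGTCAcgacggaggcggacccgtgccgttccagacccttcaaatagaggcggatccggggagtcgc
The TGACG half-site was found in 7 of the 8 factors with a window, all but ATF3, and in 21.2% of all 35116 RefSeq windows of the same length. Factors were counted by gene over 9 windows, while each share counts single windows. The half-site was added to the search after the sequences had been seen, so its count and its share are not a like comparison. In FOS it lies 64 to 60 bases before the start, in FOSB 60 to 56 and in FOSL2 66 to 62, with a second match in FOSL2 at 201 to 197. TGANNTCA, which takes in the full CRE and the form found in JUN, was matched in JUN (67 to 60 bases before the start), ATF3 (123 to 116) and JUND, against 10.1% of windows. In JUN and ATF3 the letters were TGACATCA, and in JUND one of the matches, TGACGTCA, contains the half-site on both strands. EGR1 held 2 CArG boxes, 105 to 96 and 83 to 74 bases before the start, which 1.16% of windows hold. The AP-1 site TGANTCA (6.57% of windows), the κB site (9.96%) and the E-box CACGTG (6.34%) were not matched in the windows of the 8 factors. A match is a run of letters only, and no binding was measured.

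FOS, the prototype of the FOS proteins, had intensities of 213 with TNFα, 247 with IL1β, 432 with LPS and 128 with PBS. The LPS array alone was above the floor, and the 3 treated arrays all read above PBS. FOS was 3.37-fold higher with LPS, a log2 difference of 1.75, and 2.46% of all genes at the floor were higher by as much or more. With TNFα it was 1.66-fold and with IL1β 1.93-fold above PBS, both with neither array at the floor. The gene passed the floor with LPS through the array where it was high. With the floor raised to the 75th percentile of genes it was not called.

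FOSB, whose product dimerises with JUN proteins and is best known for long-lasting forms in the brain, read 444 with TNFα, 409 with IL1β, 288 with LPS and 226 with PBS. Both cytokine arrays were high and PBS was below the floor. Its ratio to PBS was 1.97 with TNFα, just short of the 2-fold rule, 1.81 with IL1β and 1.28 with LPS. After loess centring of the TNFα and PBS arrays the log2 difference just passed 1 and the gene was called higher.

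FOSL1, encoding FRA-1, a FOS relative often abundant in squamous carcinoma and linked to invasion, had 2191 with TNFα, 3002 with IL1β, 2207 with LPS and 4919 with PBS. The PBS array was the highest of the 4, and the TNFα and LPS arrays nearly coincided. It was 2.24-fold lower with TNFα and 2.23-fold lower with LPS than with PBS, and 1.64-fold lower with IL1β. Of all genes at the floor, 2.43% were lower by as much or more with TNFα and 5.51% with LPS. Since these values share the PBS array, they do not separate a low reading on the treated arrays from a high reading on that one.

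FOSL2, encoding FRA-2, went the other way from FOSL1 with the cytokines. Its intensities were 966 with TNFα, 761 with IL1β, 429 with LPS and 363 with PBS. The cytokine arrays were high, while LPS and PBS lay near each other. FOSL2 was 2.66-fold higher with TNFα (log2 difference 1.41, matched or passed by 1.61% of genes at the floor) and 2.09-fold higher with IL1β (1.07, 2.84%). With LPS its ratio to PBS was 1.18. The call with IL1β was lost when an offset was added before the logarithm, with a log2 difference of 0.97.

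**Figure D3:**
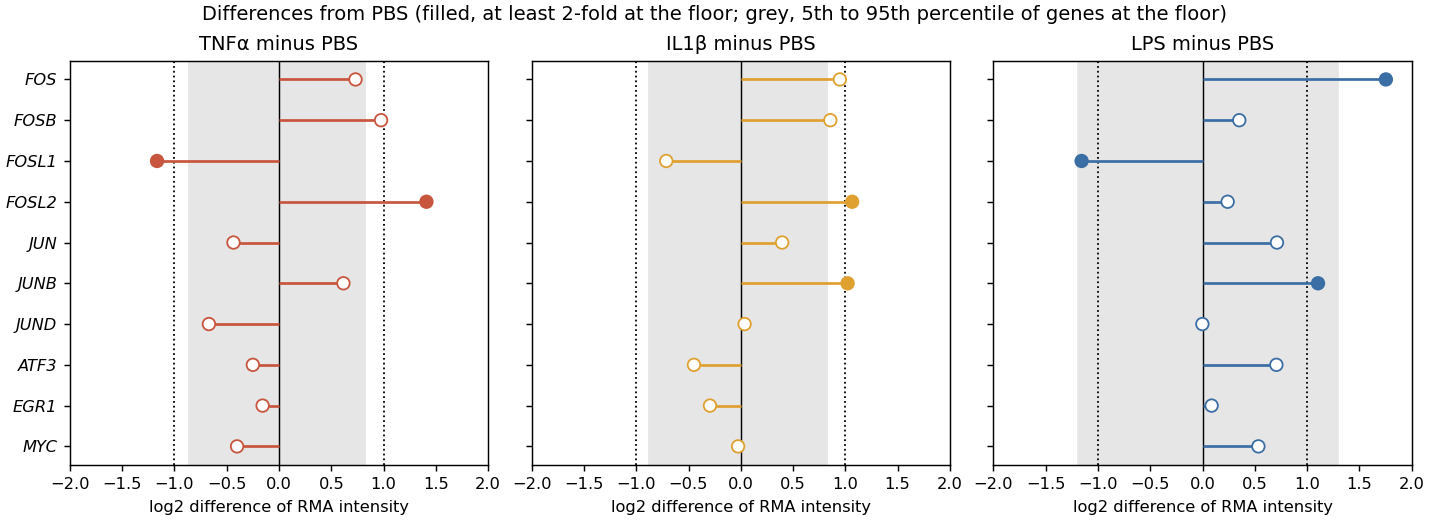
Log2 difference of RMA intensity from the PBS array for each of the 10 factors, in 1 panel per stimulus. Filled points passed the 2-fold rule, dotted lines mark 2-fold and the grey band runs from the 5th to the 95th percentile of genes at the floor. With TNFα, FOSL2 (1.41), FOSB (0.98, not called) and FOSL1 (-1.17) lay outside the band. With IL1β, FOSL2 (1.07), JUNB (1.02), FOS (0.95, not called) and FOSB (0.86, not called) did. With LPS only FOS (1.75) did, while JUNB (1.10) and FOSL1 (-1.16) were called but lay inside the band.

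JUN, the founding JUN protein and the strongest activator among them, had 218 with TNFα, 389 with IL1β, 484 with LPS and 296 with PBS. TNFα was the lowest array and the only one below the floor. Its log2 difference from PBS was -0.44 with TNFα, 0.40 with IL1β and 0.71 with LPS, none of them 2-fold. JUND, a JUN protein usually made at a steady level, likewise read lowest with TNFα, at 210.2, against 343 with IL1β, 334 with LPS and 335 with PBS. Its log2 difference was -0.67 with TNFα, 0.04 with IL1β and 0.00 with LPS.

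JUNB, which often restrains JUN and is itself a cytokine-responsive gene, had 487 with TNFα, 645 with IL1β, 684 with LPS and 318 with PBS. The PBS array was the lowest, and IL1β and LPS lay near each other. JUNB was 2.03-fold higher with IL1β and 2.15-fold higher with LPS, and 1.53-fold above PBS with TNFα. As large a difference or more was found in 3.03% of genes at the floor with IL1β and 7.16% with LPS. Both calls were close to the threshold. With an offset before the logarithm the log2 differences were 0.92 and 0.99, and neither was called. Raising the floor also ended both calls.

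ATF3, a stress-induced repressor of inflammatory genes that pairs with JUN proteins, read 274 with TNFα, 239 with IL1β, 531 with LPS and 325 with PBS. LPS was the highest array and IL1β the lowest. Against PBS its ratio was 1.63 with LPS, and its log2 difference was -0.25 with TNFα and -0.45 with IL1β.

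EGR1, a zinc finger factor and a classical immediate early gene, had 971 with TNFα, 883 with IL1β, 1149.8 with LPS and 1083 with PBS. All 4 values lay within 0.38 log2 units, the narrowest span among the 10. MYC, the growth-promoting factor that pairs with MAX, read 7067 with TNFα, 9169 with IL1β, 13517.5 with LPS and 9334 with PBS. Its log2 difference from PBS was -0.40 with TNFα, -0.03 with IL1β and 0.53 with LPS, none of them 2-fold.

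The stimuli were next set against each other, which leaves out the PBS array. None of the 10 factors differed 2-fold between TNFα and IL1β, where 1.87% of genes at the floor were called higher and 1.74% lower with TNFα. The widest gap was in JUN, with a log2 difference of -0.83 (218 with TNFα, 389 with IL1β), followed by JUND at -0.71. Between LPS and TNFα, JUN was 2.22-fold and FOS 2.03-fold higher with LPS, and FOSL2 was 2.25-fold lower. Over genes at the floor 9.93% were higher and 7.09% lower with LPS than with TNFα. ATF3 (ratio 1.94) and MYC (1.91) were just short of 2-fold in that comparison, and repeated quantile normalization took ATF3 past it. Loess centring ended the call for FOS, with a log2 difference of 0.9982 in place of 1.02, and an offset ended those for FOS (0.87) and JUN (0.99). Between LPS and IL1β, ATF3 was 2.23-fold higher with LPS (531 and 239) and no factor was 2-fold lower, where 10.5% of genes were higher and 7.45% lower. FOSL2 had a ratio of 0.56 there and FOS 1.75.

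**Figure D4:**
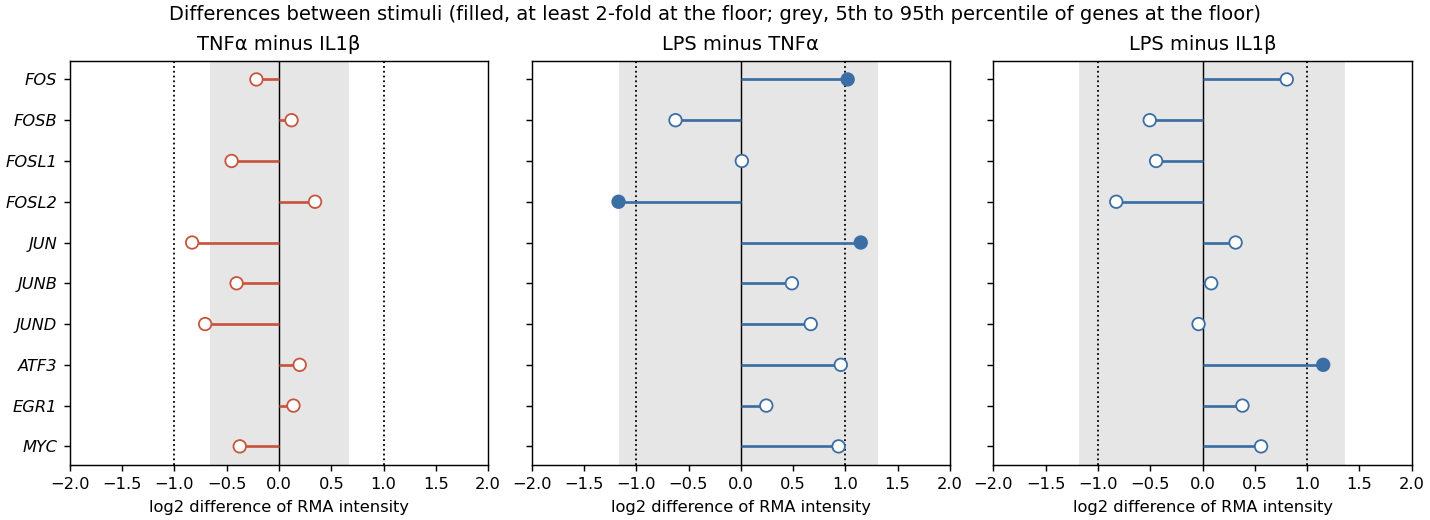
Log2 difference of RMA intensity between stimuli for each of the 10 factors, for TNFα minus IL1β, LPS minus TNFα and LPS minus IL1β. Filled points passed the 2-fold rule and the grey band runs from the 5th to the 95th percentile of genes at the floor. JUN (1.15), FOS (1.02) and FOSL2 (-1.17) were called for LPS minus TNFα and ATF3 (1.15) for LPS minus IL1β. Of these only FOSL2 lay outside the band. For TNFα minus IL1β, JUN (-0.83) and JUND (-0.71) lay outside it but were not called.

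Genes whose 4 readings ran most like those of a factor were sought among 2070 named genes with a mean level at the floor and a span of at least 1 log2 unit. Likeness was the largest deviation between 2 log2 profiles after each had been centred on its own mean, over 4 arrays. Nearest to FOS were TRPT1 (0.02) and SLC2A8 (0.06), and nearest to FOSL1 were MICA (0.08) and DENND2B (0.11). FOSL2 was nearest to KRTAP12-1 (0.09) and SLC34A1 (0.10), JUN to COMMD1 (0.08) and ARMH3 (0.09), JUNB to HOMER2 and CPNE3 (0.07 each), and ATF3 to ATP6AP2 and DERL1 (0.03 each). With 4 points many genes come close by arithmetic alone. For ATF3, 222 of the 2070 lay within 0.25, and for the other 5 factors between 17 and 40 did.

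The bZIP factors that pair with AP-1 proteins or bind related sites were followed as a list. Of 22 measured, 1 was higher and 1 lower with TNFα, 1 and 1 with IL1β, and 4 and 3 with LPS. At the floor, and so open to a call, were 17, 18 and 19 of the 22. Genes at large were also called more often with LPS (8.83% higher and 7.42% lower) than with TNFα (3.37% and 3.4%) or IL1β (3.13% and 3.57%). CEBPD, an acute phase factor of the C/EBP family, had 396 with TNFα, 233 with IL1β, 1589.7 with LPS and 183 with PBS. It was 8.67-fold higher with LPS and 2.16-fold higher with TNFα. CEBPB was 3.24-fold higher with LPS, and DDIT3 (CHOP), a stress factor that pairs with C/EBP and ATF proteins, 4.30-fold higher. BATF2, an interferon-induced relative that can oppose AP-1, was highest with PBS at 308, and was 2.45-fold lower with TNFα, 2.14-fold lower with IL1β and at least 2.73-fold lower with LPS. ATF7, a relative of ATF2, was 4.06-fold and BATF 2.12-fold lower with LPS. The median log2 difference of the list was -0.26 with TNFα, -0.08 with IL1β and 0.18 with LPS.

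Other immediate early genes were also mixed. Of 30 measured, 2 were higher and 3 lower with TNFα, 1 and 3 with IL1β, and 4 and 3 with LPS, beside the same shares over all genes. At the floor were 23, 22 and 22 of the 30. DUSP1, the phosphatase that inactivates MAP kinases, had 377 with TNFα, 374 with IL1β, 902 with LPS and 189.97 with PBS. It was 4.75-fold higher with LPS and just under 2-fold with the cytokines, at log2 differences of 0.99 and 0.98. SGK1, a serum- and glucocorticoid-induced kinase, was 2.78-fold higher with TNFα, 3.86-fold with IL1β and 4.44-fold with LPS. ID1, an inhibitor of helix-loop-helix factors, was 7.58-fold higher with LPS, and its second probe set had a log2 difference of 2.88 beside 2.92. KLF4, a factor of squamous differentiation, was 3.41-fold higher with LPS, and KLF2 at least 2.50-fold higher with TNFα. SOCS3, a feedback inhibitor of cytokine receptors, was lower with each stimulus, 5.74-fold with TNFα, 5.48-fold with IL1β and 4.16-fold with LPS, all against the same PBS reading of 934. IER3, an early survival gene, was called with no stimulus (log2 differences -0.38, -0.18 and 0.53).

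None of the 8 measured genes among the EGR relatives, their NAB corepressors and the NR4A orphan receptors was called against PBS, and in each comparison 3 of the 8 were at the floor. NAB2, the corepressor that EGR1 itself induces, read 458 with TNFα, 593 with IL1β, 445 with LPS and 606 with PBS. Of 34 measured MAP kinase, RAS and serum response genes, 1 was higher with TNFα, none was called with IL1β, and 2 were higher and 1 lower with LPS. In these comparisons 27, 24 and 25 of the 34 were at the floor. Over all genes at the floor, 3.37% were higher and 3.4% lower with TNFα, and 3.13% and 3.57% with IL1β. The shares with LPS were 8.83% and 7.42%. The counts do not set the list apart from genes at large. MAP3K8 (TPL2), which couples LPS receptors to ERK, was at least 2.52-fold higher with LPS, and MRTFB, a coactivator of serum response factor, 2.32-fold higher. NRAS was 2.98-fold lower with LPS, and MAP2K4, which activates JNK and p38, was 2.04-fold higher with TNFα.

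Of the 8 lists centred on the factors, the AP-1 targets held the largest single difference with each stimulus. Of 28 measured, 4 were higher and 1 lower with TNFα, 4 and 0 with IL1β, and 12 and 1 with LPS. At the floor, and so open to a call, were 19, 19 and 21 of the 28. Over all genes at the floor, 3.37% were higher and 3.4% lower with TNFα, 3.13% and 3.57% with IL1β, and 8.83% and 7.42% with LPS. The median log2 difference of the list was -0.06 with TNFα, 0.06 with IL1β and 1.14 with LPS. Leukocytes also make several of these products. Of 12 leukocyte markers, 4 were called higher with TNFα and none lower, 5 and 0 with IL1β, and 1 and 2 with LPS. With TNFα, FCGR3A was 13.7-fold, FCN1 12.2-fold, PTPRC at least 11.97-fold and CYBB at least 5.43-fold higher, and with LPS FCN1 was 3.73-fold higher. The markers summed to 13251 with TNFα, 14901 with IL1β, 1404 with LPS and 8766 with PBS. LYZ, the lysozyme gene, alone read 5600 with TNFα, 10389.6 with IL1β, 209 with LPS and 6917 with PBS. The part of leukocyte transcripts in these differences was not tested. Several of these genes were known from earlier results of these data to differ, so the list is no independent evidence of direction. It also holds NF-κB targets such as IL6 and CXCL8. MMP3, the protease stromelysin 1, had 2055 with TNFα, 802 with IL1β, 988 with LPS and 124 with PBS. All 3 treated arrays were above PBS. IL6 was 20.9-fold higher with LPS, 6.12-fold with TNFα and 4.63-fold with IL1β. PLAU, the urokinase, was 5.53-fold higher with LPS and had ratios of 1.18 with TNFα and 1.19 with IL1β. PTGS2, the inducible cyclooxygenase, was at least 4.01-fold higher with LPS. MMP1, a collagenase long used as a model AP-1 target, stayed below the floor on all 4 arrays, with 176 with LPS and 95.4 or less on the others. The 1 lower gene with TNFα and with LPS was VIM, the filament protein vimentin of mesenchymal cells and leukocytes (log2 differences -1.07 and -2.32), which is singled out after its values were seen.

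**Figure D5:**
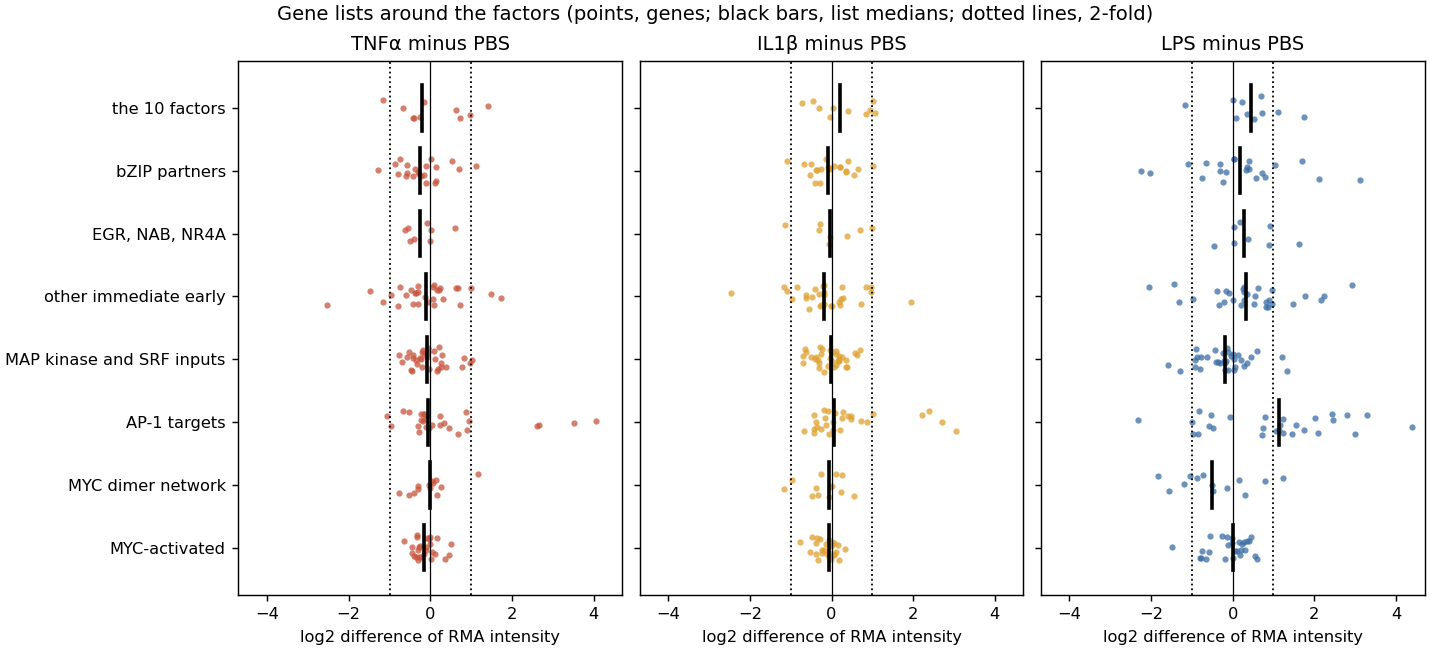
Log2 difference of RMA intensity from PBS for every measured gene of 8 lists, 1 point per gene and 1 panel per stimulus, with black bars at the list medians and dotted lines at 2-fold. The median of the AP-1 targets was 1.14 with LPS, against 0.44 for the 10 factors and -0.51 for the MYC dimer network.

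Around MYC, 3 of 13 measured members of its dimer network were lower with LPS and none higher, 1 was lower with IL1β and none was called with TNFα. At the floor were 8 of the 13 with LPS, 8 with IL1β and 7 with TNFα. Over all genes at the floor, 3.37% were higher and 3.4% lower with TNFα, and 3.13% and 3.57% with IL1β. Of all genes at the floor, 7.42% were lower and 8.83% higher with LPS, and of the 3 lower members MAX and MLXIPL each had another probe set that read above PBS. The median log2 difference was -0.51 with LPS, where that of all named genes was 0.02. MAX, the obligate partner of MYC, had 3 probe sets, of which the brightest read 3088 with TNFα, 2820.3 with IL1β, 1307 with LPS and 2962 with PBS. The log2 differences of the 3 sets with LPS were -1.18, -1.02 and 0.39, so the dimmest set went against the others. MLXIP (MondoA), a sensor of glucose metabolites that pairs with MLX, was 2.94-fold lower with LPS. MLXIPL was 2.05-fold lower in its brighter set and had a log2 difference of 0.68 in the other. MLX was 2.25-fold lower with IL1β. Of 27 genes that MYC activates, none was called with either cytokine and 1 was lower with LPS, ODC1, the rate-limiting enzyme of polyamine synthesis (5687 with LPS against 15991 with PBS). At the floor were 25 of the 27 with TNFα, 25 with IL1β and 26 with LPS. Beside the shares over all genes, these counts do not set the list apart from genes at large. The median of the 27 genes was 0.02 with LPS.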

How the data were processed

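RNA of KYSE410 cells was, per the labels' protocols, reverse-transcribed, labelled with Cy3 and put on 1 NimbleGen array a condition. The authors deposited RMA intensity on a linear scale, 1 value per probe set, per the file headers. Its RMA software is not stated in the labels or headers. The deposited series value table holds the same intensity for all 45033 probe sets. Probe sets were named through unversioned RefSeq accessions of GRCh38.p14. In all 18866 (41.9%) matched 1 symbol, and a gene took its set with the highest mean log2 level.

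Differences are log2 ratios of 2 arrays. The call rule was 2-fold with the brighter value at the floor. A dimmer value under 2 times the random control gives a fold against that limit, written "at least". No test was made.

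The members and lists were chosen with earlier results of these data known. Beyond the 10 members, up to 6 called genes per list of largest difference are named, with NAB2, DUSP1, IER3, MAX, IL6, MMP1 and MMP3 at any value, and 2 genes nearest in profile to each factor that reached the floor and spanned 1 log2 unit. A gene selected by this rule is not reported here. Alternatives were the floor, the fold, averaged probe sets, loess (span 0.3), repeated quantile normalization, the series table and an offset of 50.9. Python 3.11.15 was used with pandas 2.3.3, numpy 2.4.6, matplotlib 3.10.9 and statsmodels 0.14.6.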

Additional observations from a re-analysis of the deposited data

How the results depend on the processing

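No paired analysis was possible because each condition had 1 array. The count of factors at least 2-fold different from PBS was 2 with TNFα, 2 with IL1β and 3 with LPS. At a 1.5-fold threshold it was 5, 4 and 5, and at 3-fold 0, 0 and 1. A floor at the 75th percentile left 1 with IL1β and 1 with LPS, and an offset before log2 left 0 with IL1β. Between stimuli, TNFα and IL1β differed in 0 factors, and in 2 at 1.5-fold. LPS and TNFα differed in 3, in 7 at 1.5-fold, in 0 at 3-fold, and in 1 with the higher floor or the offset. LPS and IL1β differed in 1, in 3 at 1.5-fold, and in 0 at 3-fold or with the higher floor. A stricter threshold or floor and an offset lower such counts by construction, and a 1.5-fold threshold raises them. The share of all genes called was computed for the 2-fold rule only, so the counts at other settings have no such share beside them. Of the 9 alternatives, only loess centring, repeated quantile normalization and the offset could alter the difference of a factor. The floor and the fold do not enter it, the series table is identical and each factor has 1 probe set. Under those that could alter it, no called difference changed sign, and the medians over the 10 factors moved by less than 0.1. Signal over background limits FOS most, since it was under the floor on 3 arrays.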

Other observations

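The array on which each factor read highest or lowest was counted beside the same for the 8593 named genes with a mean level at the floor. Of the 10 factors, 6 were highest with LPS (FOS, JUN, JUNB, ATF3, EGR1 and MYC), 2 with TNFα (FOSB and FOSL2), 1 with IL1β (JUND) and 1 with PBS (FOSL1), where 38.8%, 17.3%, 17.8% and 26% of all such genes were. None of the 10 read lowest with LPS, where 31.3% of genes did. FOS, FOSB, FOSL2 and JUNB were lowest with PBS, where 21% of genes were, and FOSL1, JUN, JUND and MYC with TNFα (23.6%). ATF3 and EGR1 were lowest with IL1β (24%). The mean level of FOS was below the floor, so FOS is not itself among the 8593 genes. The order TNFα, IL1β, LPS, PBS from high to low, which FOSB and FOSL2 shared, held for 2.73% of genes. The order LPS, IL1β, TNFα, PBS of FOS and JUNB held for 5.55%. Orders of 4 single readings carry no error, and neighbours such as IL1β and LPS for JUNB differed by 0.08 log2 units.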
